A study of Mus musculus with 4 samples.

Results

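The comparison sets naive CD4 T cells of the spleen from mice deficient in Scd1 against the same cells from littermate controls, by ATAC-seq. Its members are the regions of chromosomes 1 to 19 and X in the authors' peak lists of the 2 naive libraries, 46576 in the control and 51297 in the Scd1-deficient list. These are 97873 of the 251124 regions in the 4 lists of the study, whose other lists come from DN3 thymocytes of the same genotypes. The naive cells were isolated with magnetic beads and used directly, as untreated primary cells. The control genotype is given as littermate control, with the mark HZ in its title, which the labels leave unexplained. The labels give neither the deleted stretch of Scd1, nor the age and number of the mice, nor whether a library pools animals. Each group is 1 library, so no difference below was tested. All values describe these libraries, and every interval covers counting error only.

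ATAC-seq uses the transposase Tn5, which inserts adapters where DNA is not wrapped in nucleosomes, so that promoters and enhancers in use give many fragments. Naive CD4 T cells circulate between blood and lymphoid organs in a resting state held by factors such as Tcf7, Lef1, Foxp1, Klf2 and Bach2, and choose a helper fate only after they meet antigen. SCD1 is an enzyme of the endoplasmic reticulum that introduces a double bond into stearoyl-CoA and palmitoyl-CoA and so supplies oleate and palmitoleate for membranes, stored lipid and the lipid modification of Wnt proteins. Its gene is a target of SREBP-1c, LXR and ChREBP, factors that switch on fatty acid synthesis.

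A control and a Scd1-deficient region were taken as a pair when each was the other's longest overlap, with at least 1 bp in common. Among the largest differences between paired regions were some that lie over gene starts, and 4 of their promoters are printed here with that of Tcf7, whose start gave nearly equal values. Dennd5b encodes an activator of Rab GTPases, Srxn1 the sulfiredoxin that repairs oxidised peroxiredoxins, Tlr5 the receptor for bacterial flagellin, and Batf3 an AP-1 family factor best known from dendritic cells. Tcf7 encodes TCF-1, a factor that defines the T lineage. Each sequence is the 250 bases before the listed RefSeq start (GRCm38.p6, which is mm10), on the strand of the gene. Capitals mark matches, on either strand, to the GC box GGGCGG bound by SP and KLF factors, the AP-1 site TGANTCA and the ETS core CCGGAA. The windows are chr6:149101681-149101930 (minus strand) for Dennd5b, chr2:152105274-152105523 (plus) for Srxn1, chr1:182954538-182954787 (plus) for Tlr5, chr1:191098164-191098413 (plus) for Batf3 and chr11:52282596-52282845 (minus) for Tcf7, which has 2 listed starts.
Dennd5b: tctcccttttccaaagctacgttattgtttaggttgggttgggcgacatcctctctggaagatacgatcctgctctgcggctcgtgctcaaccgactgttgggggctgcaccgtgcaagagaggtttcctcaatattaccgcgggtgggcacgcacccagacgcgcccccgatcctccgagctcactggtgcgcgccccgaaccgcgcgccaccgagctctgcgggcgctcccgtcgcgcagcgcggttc
Srxn1: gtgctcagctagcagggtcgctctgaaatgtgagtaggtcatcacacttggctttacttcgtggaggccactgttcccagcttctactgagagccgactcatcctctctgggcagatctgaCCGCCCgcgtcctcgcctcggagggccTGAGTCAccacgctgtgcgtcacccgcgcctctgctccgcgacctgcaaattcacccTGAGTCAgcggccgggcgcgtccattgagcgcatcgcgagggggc
Tlr5: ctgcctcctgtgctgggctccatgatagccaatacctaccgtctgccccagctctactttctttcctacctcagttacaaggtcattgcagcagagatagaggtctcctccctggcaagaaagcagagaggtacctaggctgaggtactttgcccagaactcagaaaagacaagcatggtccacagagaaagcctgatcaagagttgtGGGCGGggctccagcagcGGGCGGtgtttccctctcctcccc
Batf3: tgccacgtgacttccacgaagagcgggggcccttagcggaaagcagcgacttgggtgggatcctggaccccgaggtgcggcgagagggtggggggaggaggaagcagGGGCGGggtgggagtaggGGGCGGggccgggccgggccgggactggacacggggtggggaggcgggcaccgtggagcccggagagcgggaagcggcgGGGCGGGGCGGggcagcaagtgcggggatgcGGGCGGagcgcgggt
Tcf7: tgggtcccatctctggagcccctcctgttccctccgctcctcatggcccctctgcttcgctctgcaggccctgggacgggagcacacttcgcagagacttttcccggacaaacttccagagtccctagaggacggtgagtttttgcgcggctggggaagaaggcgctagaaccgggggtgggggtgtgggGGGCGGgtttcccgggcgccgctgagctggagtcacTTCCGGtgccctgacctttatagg

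The 5 promoters differ in their letters. Batf3 held 5 GC boxes and Tlr5 held 2. Srxn1 held 1 GC box, on the strand opposite the gene (CCGCCC), and 2 AP-1 sites, whose pattern matches on both strands alike. The Tcf7 stretch held 1 GC box and 1 ETS core, and none of the 11 motifs searched was found in the Dennd5b stretch. For comparison, over the 17274 listed promoters, each searched from 250 bases before to 50 after the start, a GC box was found in 47.35%, an ETS core in 19.45% and an AP-1 site in 7.06%. The CpG dinucleotides in the printed bases numbered 28 for Dennd5b, 27 for Batf3, 21 for Srxn1, 15 for Tcf7 and 4 for Tlr5. A match is a description of the letters and no evidence of binding.

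Across the genome the naive lists of the genotypes gave nearly the same accessibility at the regions they share. The lists formed 43850 pairs, and 33176 of them (75.66%) were at least 500 bp wide in both lists. In these wide pairs the authors' fold, which is the fragment pileup at the summit over the local background of the same library, was divided by the median fold of its list, 7.68 in the control and 7.95 in the Scd1-deficient list. The result is called the scaled fold, and every log2 value below is that of the Scd1-deficient over the control scaled fold, so that a positive value is higher without Scd1. The median was 0.06, and the middle 50% of pairs lay between -0.05 and 0.17. Of the wide pairs, 97.58% lay within 1.5-fold of equality. A summit can differ because more cells are open there or because each cell is cut more often, and these cannot be told apart in bulk cells. The log2 folds of the lists had a Pearson correlation of 0.946 over the 33176 pairs, which are not independent replicates.

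Differences of at least 2-fold were rare. They numbered 38 higher pairs (0.115%) and 21 lower pairs (0.0633%). This balance turned with the divisor, to 21 higher and 24 lower with the medians of the matched wide regions, and to 15 and 27 with those of equal numbers of the strongest regions. At 1.5-fold there were 632 higher (1.9%) and 171 lower pairs (0.515%). No chromosome stood apart, with medians from 0.05 on X to 0.07 on chromosome 6. By position, the 9140 pairs within 1 kb of a listed gene start had a median of 0.06, as had the 11460 pairs inside genes and the 9404 outside them, and the 3172 pairs at other annotated gene ends had 0.07. The tails were thinner at gene starts, where 1.06% of pairs were 1.5-fold higher and 0.186% lower, against 2.36% and 0.663% inside genes. Among the 25% of pairs with the strongest mean scaled fold none passed 2-fold, and 34 of 8294 were 1.5-fold higher and 1 was 1.5-fold lower.

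The choice of divisor sets where 0 lies. With the medians of equal numbers of the strongest regions as divisors, all values moved by -0.11, and the share of wide pairs above 0 went from 65.2% to 37.1%. Signs of values between 0 and 0.11 therefore depend on the scaling, and single genes are read against the overall median of 0.06.

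**Figure D1:**
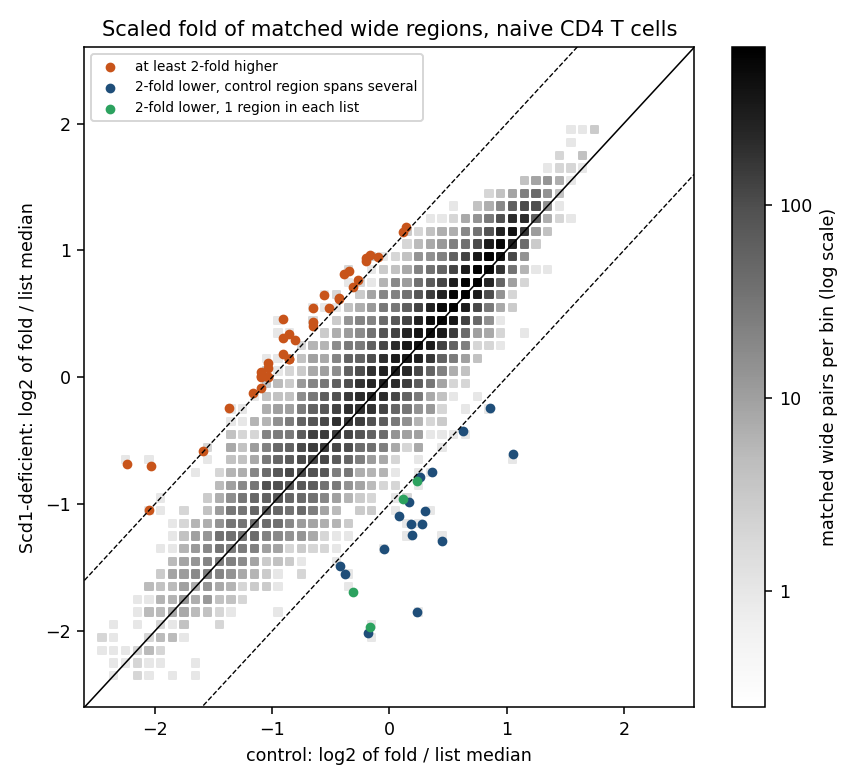
Scaled fold of the 33176 matched wide regions in naive CD4 T cells, control on the horizontal and Scd1-deficient on the vertical axis, both log2. Grey squares are bins of pairs, coloured points are the 38 pairs at least 2-fold higher and the 21 at least 2-fold lower, the solid line is equality and the dashed lines are 2-fold; 17 of the lower pairs have a control region that spans several Scd1-deficient regions.

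The pairs at least 2-fold higher in the Scd1-deficient list were mostly weak regions with a low local background in the control list. They were chosen by their ratio, which favours low control values. Over the 38 pairs at least 2-fold higher, the median scaled fold was 0.553 in the control and 1.256 without Scd1. The median number of fragments at the summit was 30 in the control and 50 without Scd1, although over whole lists the medians were 103 and 75. Thus 33 of the 38 had more fragments in the Scd1-deficient library in absolute number. Of the 38, 11 lay at gene starts (28.95%), 14 inside genes (36.84%), 10 outside genes (26.32%) and 3 at other gene ends (7.89%). These shares were near those of all wide pairs, 27.55%, 34.54%, 28.35% and 9.56%. In the control, 33 of the 38 regions (86.84%) had the lowest background of the list, 5.12 fragments, against 14.53% of all wide pairs. The corresponding lowest background was 3.65 fragments without Scd1.

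Dennd5b gave the largest value among the pairs with a scaled fold of at least 1 in the higher list. The region over its start (chr6:149100988-149101726 in the control) had 24 fragments at the summit in the control and 50 without Scd1, a ratio of 2.08 (95% counting interval 1.26 to 3.55). Its scaled fold was 0.532 in the control and 1.377 without Scd1, a log2 of 1.37. In the DN3 lists, a measure that did not choose the region, the same place had 1.336 in the control and 1.423 without Scd1. So the values of either DN3 list were close to that of the Scd1-deficient naive list, each list being scaled by its own median. The naive control was the lowest of the 4, but the pair was chosen for a low control value against the other naive list.

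At Dennd5b the summits of the lists lay 168 bp apart, at Srxn1 110 bp and at Tlr5 212 bp, so none of these starts is among the 27 higher pairs with summits within 100 bp. Of the 38 higher pairs 11 (28.95%) had summits more than 100 bp apart, against 14.17% of all wide pairs. At the Srxn1 start (chr2:152105081-152105747) the counts were 25 and 46 fragments and the scaled folds 0.553 and 1.27, with 1.002 and 1.165 in the DN3 control and Scd1-deficient lists. At the Tlr5 start (chr1:182954259-182954854) the counts were 21 and 37, and the scaled folds 0.468 and 1.027, with 0.988 and 1.215 in DN3. As at Dennd5b, the low naive control value is partly set by the choice of these pairs, so its rank among the 4 lists is no separate result. At Batf3, taken as the most raised member of the AP-1 list, the counts were 21 and 34 and the log2 was 1.01. The interval of its fragment ratio was 0.913 to 2.94. Fragment ratios here are not scaled for depth, and the list medians were 103 and 75 fragments, so a ratio of 1 does not mark equality. The control region (chr1:191097246-191098002) ended before the printed promoter and its summit lay 932 bp from that of the Scd1-deficient region (chr1:191097439-191098697), which reached over the start, so the pair does not compare 1 summit.

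The other 7 of the 10 highest pairs with a scaled fold of at least 1 in the higher list lay inside or between genes. Without that minimum, pairs inside Smarca2 (log2 1.56, 65 and 50 fragments) and at an end of Trp53bp1 (1.34, 41 and 38) lay above and just below Dennd5b, with scaled folds of 0.623 and 0.616 without Scd1. At both the fragment count was lower without Scd1, on a lower local background. The summits lay 552 bp apart at Smarca2 and 1654 bp apart at Trp53bp1, so neither pair compares 1 summit. Trak1, which encodes an adaptor that carries mitochondria along microtubules, held a region with 24 fragments in the control and 48 without Scd1, a log2 of 1.22. Inside Wwp2, which encodes a ubiquitin ligase, the counts were 35 and 67 and the log2 1.20. The scaled folds were 0.532 in the control and 1.242 without Scd1 at Trak1, and 0.766 and 1.756 at Wwp2. A value of at least 1 without Scd1 was required of these named pairs. The regions nearest to 2410004P03Rik, to Mkln1 (a subunit of a ubiquitin ligase complex) and to Pgap4 (an enzyme of GPI anchor synthesis) had 31 and 57, 29 and 53, and 36 and 65 fragments. Those nearest to Erv3, an endogenous retroviral gene, and to Tmx1, a thioredoxin-like protein of the endoplasmic reticulum, had 22 and 39, and 40 and 70. The log2 of these 5 pairs lay between 1.14 and 1.20. Their distances to the nearest annotated gene end ran from 5.9 kb for Erv3 to 165.4 kb for Mkln1.

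Of the 38 higher pairs, 37 (97.37%) were also called in both DN3 lists, against 91.06% of all wide pairs. There their Scd1-deficient over control log2 had a median of 0.02 and ran from -0.24 to 0.30, and none passed 1.5-fold. Just inside the 2-fold line were Lrrk1 and Kank3, both with 1.00, and just outside it were Capn9 and Pds5a, also with 1.00, so the line itself marks no break.

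**Figure D2:**
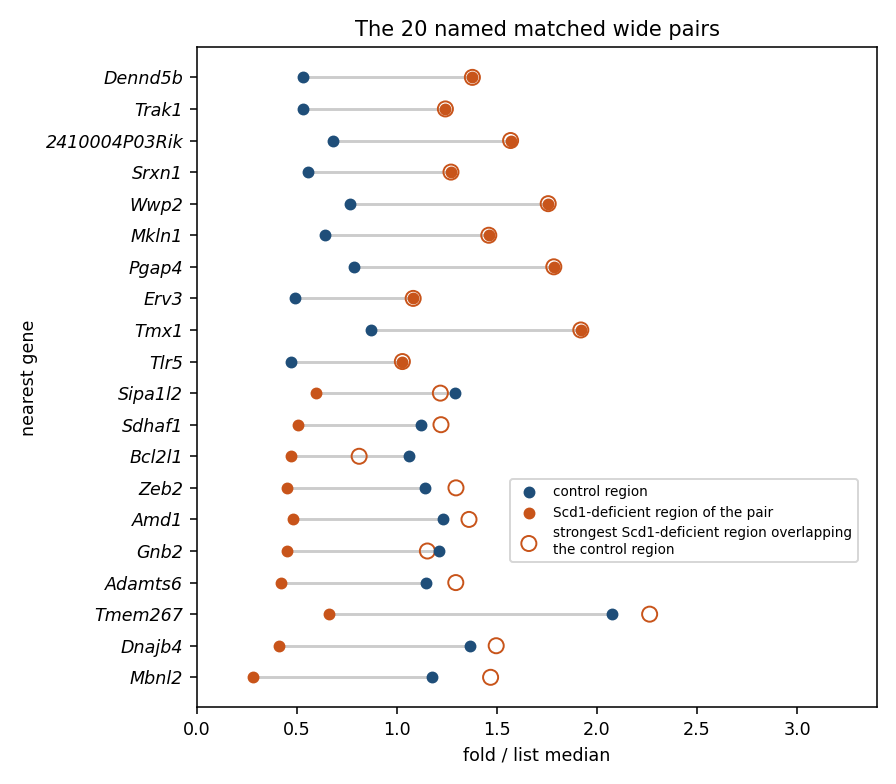
Scaled fold (horizontal axis) of the 20 named pairs, listed by nearest gene. Blue points are the control region, filled orange points the Scd1-deficient region of the pair and open circles the strongest Scd1-deficient region that overlaps the control region; in the 10 lower pairs the open circle lies to the right of the filled point.

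Most of the regions called lower were broad in the control list. In 17 of the 21 pairs at least 2-fold lower, 1 control region spanned several Scd1-deficient regions, against 2.94% of all wide pairs. The summits of the 21 pairs lay a median of 1065 bp apart, against 17 bp over all wide pairs. When the control region was set against the strongest Scd1-deficient region that overlaps it, the median log2 of the 21 was 0.09, and 17 of the 21 lay within 1.5-fold. This comparison was added after the values were seen.

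Mbnl2, which encodes a splicing regulator, shows the pattern. At its start the control had 1 region of 3849 bp (chr14:120275165-120279013) with 464 fragments at the summit, and the Scd1-deficient list had 3 regions within it. The region with the longest overlap had 78 fragments, its summit lay 1907 bp from the control summit, and the log2 was -2.08. The strongest of the 3 had a scaled fold of 1.468 against 1.175 in the control, a log2 of 0.32. The same turn of sign occurred at Dnajb4 (a heat shock cochaperone), Tmem267, Adamts6 (a secreted metalloprotease), Amd1 (the decarboxylase that feeds polyamine synthesis), Zeb2 (a repressor of effector lymphocytes) and Sdhaf1 (an assembly factor of succinate dehydrogenase). Their paired log2 ran from -1.74 at Dnajb4 to -1.15 at Sdhaf1, and their values at the strongest region from 0.12 to 0.19.

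The remaining 3 of the 10 lowest named pairs kept a negative sign. At Gnb2, which encodes a G protein subunit, the log2 went from -1.44 to -0.07. Inside Sipa1l2 it went from -1.11 to -0.09. Inside Bcl2l1, which encodes the survival protein BCL-XL, it went from -1.18 to -0.39, with 66 fragments in the control and 28 at the paired summit. Of these 3 genes Bcl2l1 thus lay furthest below the overall median.

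Only 4 of the 21 lower pairs joined exactly 1 region of each list. They were named after their values were seen and lay inside Osbpl3 (an oxysterol-binding protein relative), Tspan18 and Uso1 (a tether of Golgi vesicles) and near Tmem44. At Osbpl3 and Tspan18 the summits lay 520 and 798 bp apart. At Tmem44 they lay 21 bp apart, and the counts were 50 fragments in the control and 18 without Scd1, a ratio of 0.36 (0.198 to 0.628) and a log2 of -1.08. At Uso1 they lay 233 bp apart, with 57 and 20 fragments, a ratio of 0.351 (0.2 to 0.593) and a log2 of -1.06. In DN3 cells the pair near Tmem44 had a log2 of 0.02 and that of Uso1 0.31.

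Local background moved with the spread of the whole comparison. The 27969 wide pairs (84.3%) whose background lay above the lowest value of their list in both genotypes had a median log2 of 0.05, and 0.418% of them were 1.5-fold higher. The 3591 pairs at the lowest background in both lists had a median of 0.15, with 10.2% at least 1.5-fold higher and 1.92% lower. A further 1616 pairs, at the lowest background in 1 list, had a median of 0.17, with 9.1% higher and 1.73% lower. These last classes held 81.49% of the 632 pairs that were 1.5-fold higher. They had few fragments, and the part of background and depth in these differences was not tested.

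**Figure D3:**
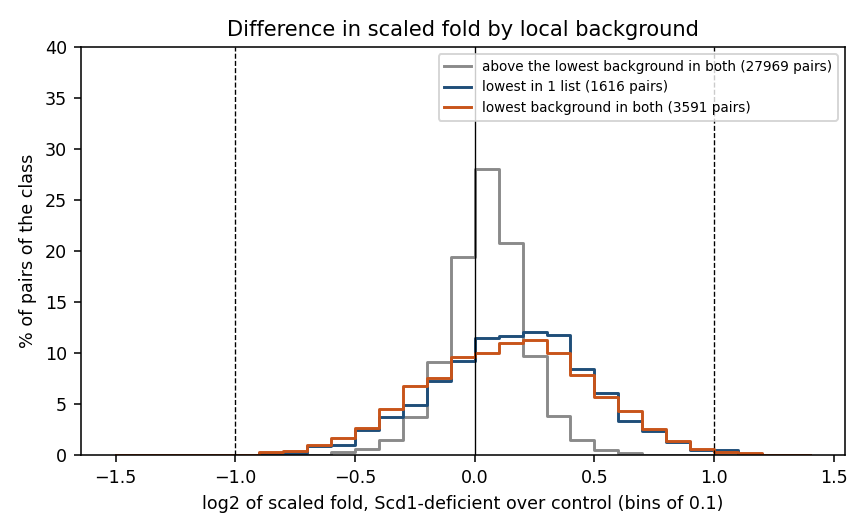
Share of wide pairs (vertical axis, percent of each class) by log2 of scaled fold, Scd1-deficient over control (horizontal axis, bins of 0.1, ends collected at 1.5). Grey is the class above the lowest background in both lists, which is narrow around 0.05; blue and orange are the classes at the lowest background in 1 or both lists, which are wider and sit to the right.

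Presence was compared besides strength. Of control regions 2686 (5.77%) had no counterpart, and of Scd1-deficient regions 6346 (12.4%). With equal numbers of the strongest regions the order turned, to 9.63% in the control and 7.90% without Scd1. Of wide regions 675 in the control (1.81%) and 725 without Scd1 (2.01%) had none. The Scd1-deficient list had 3215 regions narrower than 275 bp, the narrowest width in the control list, and 2085 of these (64.85%) had no counterpart. A further 40 control and 1101 Scd1-deficient regions overlapped the other list without being the longest overlap, which completes the account of the members.

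Wide regions of the Scd1-deficient list alone were mostly called in thymocytes too, though less often than shared ones. Of the 725, 504 (69.52%) were called in both DN3 lists, against 265 of the 675 wide control-alone regions (39.26%) and 90.12% of shared wide Scd1-deficient regions. At gene starts 107 wide regions were in the Scd1-deficient list alone, 103 of them (96.26%) called in both DN3 lists, and 12 were in the control alone, 8 of them (66.67%) called there. Of shared wide Scd1-deficient regions at starts 99.32% were called in both DN3 lists. Their medians were 21 fragments and a scaled fold of 0.541 at the 107 starts. They were therefore weak in the naive list that called them.

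The wide regions of the Scd1-deficient list alone with the highest −log10 q lay inside Gmds, the first enzyme of GDP-fucose synthesis, with 68 fragments and a scaled fold of 1.865, and near Cbr1, a carbonyl reductase, with 66 and 1.811. Both were as strong in DN3 cells, with 1.795 and 1.625 in the control and Scd1-deficient lists at Gmds and 2.128 and 2.038 at Cbr1. The region near Sorl1, a sorting receptor, had 59 fragments and was called in DN3 cells in the control alone. Those near Ebf1 (the B lineage factor), inside Tex14 and near Spdye4c had 50 fragments each, that inside Chrdl2 had 49, and that near Atp2b1 (a calcium pump) had 47. The Atp2b1 region was called in neither DN3 list and the other 6 in both. None of the 8 reached a scaled fold of 2.

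The wide regions of the control alone are given by −log10 q, the authors' significance of the summit. The highest lay inside Actr10, a dynactin subunit gene, with 245 fragments on a local background of 43.43, although its scaled fold was 0.721. Inside Mtmr7, a lipid phosphatase gene, 90 fragments gave 1.581 (chr8:40609534-40610424), and at Pcm1, a centriolar satellite gene on the same chromosome (chr8:41333677-41334798), 75 fragments gave 1.28. These regions were also lower without Scd1 in DN3 cells, with 1.308 in the control and 0.634 in the Scd1-deficient list at Mtmr7 and 0.795 and 0.496 at Pcm1. The nearest Scd1-deficient naive region lay 13981 bp away at Mtmr7 and 39205 bp away at Pcm1. At the other 6 regions named here it lay 750 bp (Adgre5) to 7791 bp (2610301B20Rik) away, under 1 kb also at Cxcr1 (774 bp) and Vmn2r129 (977 bp). The regions near Vmn2r129, Rps6ka1 (a ribosomal S6 kinase), Cxcr1 (a chemokine receptor) and Adgre5 (CD97), and inside 2610301B20Rik had 60 to 167 fragments. At all 5 the DN3 scaled fold was higher without Scd1 than in the control, by little at Adgre5 (0.431 and 0.445) and Vmn2r129 (0.751 and 0.799). Of all wide pairs called in both DN3 lists, 64.0% were higher there without Scd1.

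Among the 17274 genes with a listed start, 9918 had a region within 1 kb of it in both naive lists and 7004 in neither. The control alone had a region there at 46 genes (0.266%) and the Scd1-deficient list alone at 306 (1.77%), of which 31 and 278 were also called in both DN3 lists. Of all shared Scd1-deficient regions at starts, 98.76% were called in both DN3 lists. At annotated gene ends of all 21631 protein-coding genes the counts were 80 (0.37%) and 417 (1.93%). Promoters called without Scd1 alone stood between those called in both lists and in neither by their CpG and GC box content. Their median was 12 CpG dinucleotides in 300 bases, against 21 at starts called in both lists and 3 at starts called in neither. A GC box was found in 50.33% of them, against 67.26% and 19.2%. Not every motif lay between, as the E-box was found in 16.67%, against 14.43% and 16.36%. Promoters called in the control alone had a median of 5 CpG, and 21.74% held a GC box.

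At 147 of the starts called in both lists the strongest regions of the lists differed at least 1.5-fold upward without Scd1, and at 16 downward. The promoters of the 147 had 21 CpG, the same median as all starts called in both lists. The E-box CAGCTG was found in 22.45% of them, against 14.43% of starts called in both and 15.32% of the weakest 25% of these. The ETS core was found in 8.16%, against 29.44% and 16.85%. The weakest 25% thus held fewer ETS cores than all starts called in both, and the 147 held fewer still. These sets are not matched in strength. The median control scaled fold was 0.553 at the 147 and 0.847 at the weakest 25%, and without Scd1 it was 1.027 and 0.896. Starts that differed the other way had shares on the same side. Of the 46 starts called in the control alone, 28.26% held the E-box and 10.87% the ETS core. Of the 16 lower starts, 12.5% held the ETS core, and their E-box share was also above that of the 147. These shares therefore do not set raised starts apart from lowered ones. Other motifs are not compared for the 147 here. The shares were not tested, and the 147 starts were chosen by their difference.

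Genes of T cell identity and of the naive state were accessible in both lists and at similar strength. All 7 identity genes were also called in both DN3 lists, with scaled folds of 0.9 and 0.955 at Cd4 in the control and Scd1-deficient list, so they mark T lineage cells and do not set naive CD4 cells apart from thymocytes. At Ccr7, DN3 cells had scaled folds of 1.867 and 1.993, more than the naive lists. By summit fragments the order was the other way, with 381 and 346 in DN3 cells against 741 and 489 in naive cells. The naive local background there was 149.54 and 88.42 fragments, so the scaled fold does not rank the cell types at this gene. For each gene the pair with the most fragments at a gene start or end is given, over a set of 35 genes of which 29 had such a pair. The 29 values ran from -0.28 to 0.16 with a median of 0.05, and none passed 1.5-fold. At Cd4, the coreceptor, the counts were 344 fragments in the control and 237 without Scd1, the scaled folds 1.267 and 1.134, and the log2 -0.16. At Cd3e, a chain of the T cell receptor complex, they were 708 and 494, 1.313 and 1.423, and 0.12. At Lck, the kinase that starts receptor signalling, they were 634 and 419, 1.368 and 1.255, and -0.12. This was the lowest of the 8 wide pairs around Lck, of which 7 were above 0, with a median of 0.21. By these single pairs the 7 genes of T cell identity, with Cd247, Zap70, Thy1 and Cd5, lay on either side of the overall median of 0.06. Cd3e and Zap70 were above it and 5 below. By the median of all wide pairs around each gene, Cd3e, Zap70, Lck and Cd5 were above and Cd4, Cd247 and Thy1 below. Lower fragment counts without Scd1 go with the smaller median count of that whole list.

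Genes of homing and survival differed little. Ccr7, the chemokine receptor for T cell zones, had 741 fragments in the control and 489 without Scd1, and scaled folds of 0.641 and 0.689, a log2 of 0.10. S1pr1, the receptor for exit from lymph nodes, had 449 and 337 fragments and a log2 of 0.08. Klf2, the factor that drives S1pr1, had 920 and 627 and -0.09. Il7r, the receptor for the survival cytokine IL-7, had 346 and 262 and 0.09, and Bcl2 780 and 575 and 0.07. So by these single pairs Klf2 lay on the low side of the overall median and the other 4 at or just above it, all within 1.5-fold. Over all 7 wide pairs around Ccr7 the median was 0.001, and over the 19 around Bcl2 it was 0.05.

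Factors of quiescence and T lineage had similar values at the end region with most fragments. Tcf7 had 386 fragments in the control and 239 without Scd1, and scaled folds of 0.505 and 0.509. Lef1 had 0.672 and 0.703, Bach2 0.7 and 0.73, Foxo1 0.723 and 0.747, Foxp1 0.652 and 0.717, and Satb1 0.718 and 0.801. These are scaled folds of summits in broad open stretches, where the local background is high, and 5 of the 6 had at least 386 control fragments. At Bach2 the strongest end region was another one in the control, with 291 fragments and 1.191, against 0.73 without Scd1, a log2 of -0.71. Ets1 was the member of this group with a negative value, -0.28, at a small region with 50 and 32 fragments. Over all wide pairs around these 7 genes, 148 in number, none passed 1.5-fold. The 52 pairs around Foxp1 ran from -0.31 to 0.49 and 34 of them were above 0.

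Genes of helper fate were near equality too. Tbx21, the factor of Th1 cells, had 142 fragments in the control and 114 without Scd1, and a log2 of 0.02. Gata3, the factor of Th2 cells, had 500 and 355 and 0.14, Foxp3, the factor of regulatory T cells, 27 and 25 and 0.08, and Il2 71 and 59 and 0.02. A single pair around Gata3 passed 1.5-fold, at -0.71, where the control region spanned 2 Scd1-deficient regions. Against the strongest of these the value was -0.01.

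**Figure D4:**
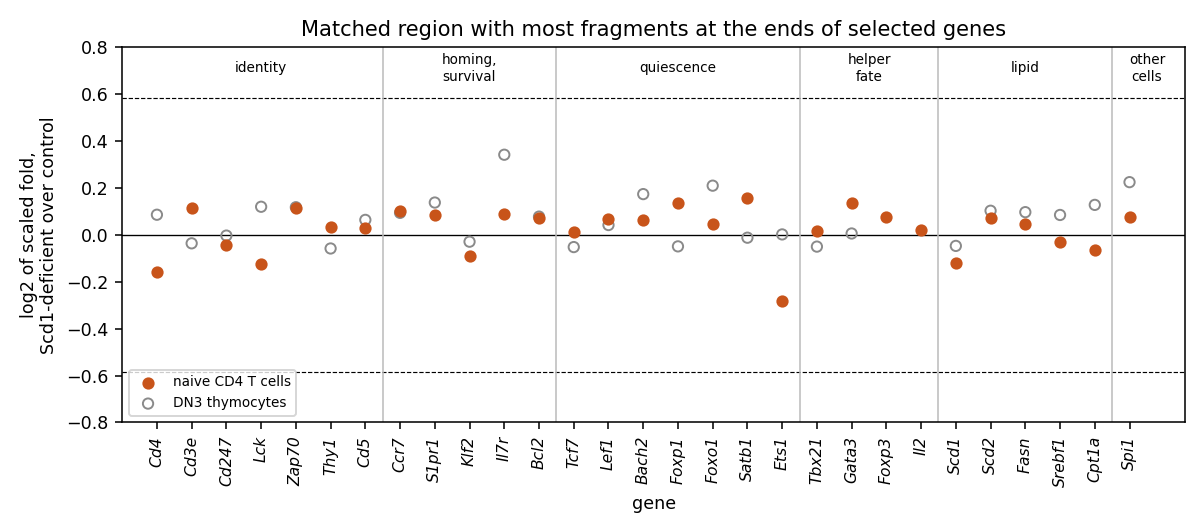
Log2 of scaled fold, Scd1-deficient over control (vertical axis), of the matched region with the most fragments at an end of each of 29 genes (horizontal axis, grouped by role), in naive CD4 T cells (filled) and, where the place is called in both lists, DN3 thymocytes (open). Dashed lines are 1.5-fold; all naive values lie within them, and Ets1 is lowest, with -0.28.

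Lipid genes were as close. Scd1 itself kept a region over its higher-coordinate end, with 50 fragments in the control and 39 without Scd1, and scaled folds of 0.87 and 0.801, a log2 of -0.12. Since the deleted part is not given, this checks neither the label nor the deletion. Scd2, the neighbouring desaturase gene, had 333 and 265 fragments and 0.07, and Fasn, the fatty acid synthase, 826 and 666 and 0.05. Srebf1, which encodes SREBP-1, had 636 and 465 and -0.03. Its strongest end region by scaled fold was another one, with 144 and 152 fragments, 1.506 and 1.832, and a log2 of 0.28. Cpt1a, which brings fatty acids into mitochondria for oxidation, had 440 and 309 and -0.06. By these single pairs, Scd2 lay above the overall median of 0.06 and the other 4 of the 5 lipid genes reported below it. By the median of all wide pairs around each gene, Scd2, Fasn (0.12) and Srebf1 (0.07) lay above and Scd1 and Cpt1a below.

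Markers of other cell types were partly accessible. Over their 5 lists both naive lists called a gene end at 40 of 88 genes (45.45%), against 56.66% of all protein-coding genes and 90.75% of the entries of the T cell lists. B cell markers had such a region at 9 of 16 and early thymocyte markers at 12 of 21. Lyz2, a myeloid gene, had no region within 10 kb in either naive list, and Cd8a, Pax5 and Gata1 had none at a gene end. Spi1 (PU.1) had 201 and 167 fragments and 0.08 at a gene end. This was the highest of its 5 wide pairs, of which 1 was above 0, with a median of -0.04. Cd8a, Gata1 and Pax5 had 1 wide pair each within 10 kb, with -0.465, -0.325 and -0.199. Over the 5 marker lists of other cells, 164 wide pairs gave medians from 0.00 (CD8 T and NK cells) to 0.10 (B cells), with 2 pairs at least 1.5-fold higher and 1 lower. Of members whose gene-end call differed, all 8 were called in the Scd1-deficient list alone, which over all protein-coding genes had 417 such ends against 80 in the control alone. They were Gzmb, Gzmk, Fcer2a, Pdgfrb, Kit, Meis1, Rag1 and Zbtb16, with 13 to 29 fragments. Apart from Gzmb, these were called in both DN3 lists. The part of other cells in the differences was not tested.

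Over 26 gene lists of pathways and cell types, with 628 symbols of which 624 matched the reference, medians lay between -0.01 and 0.12 against 0.06 for all wide pairs. Lists share genes, so a pair can count in several. In sum the lists' 2226 entries held 23 at least 1.5-fold higher and 12 lower, against the 1.9% and 0.515% of all wide pairs. The 5 lipid lists had medians from 0.01 to 0.06. Cholesterol synthesis and uptake was the lowest of them, with 59 pairs, 2 of them 1.5-fold higher and none lower. Its most raised pair lay at Acat2, which makes acetoacetyl-CoA, with 33 and 45 fragments and a log2 of 0.75.

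In the list of fatty acid desaturation and synthesis, 2 of 70 pairs were 1.5-fold higher and 1 lower. The most raised lay at the start of Fads3, a desaturase relative, with 35 fragments in the control and 55 without Scd1 and a log2 of 0.96. The lowest lay inside Elovl6, which elongates palmitate, with -0.95, and there the strongest overlapping Scd1-deficient region gave 0.09. In the list of fatty acid oxidation and storage, Mgll, which releases fatty acids from monoacylglycerol, held the lowest pair, with 34 and 18 fragments and -0.65. Cpt1b was called at its end in the control alone (21 fragments), and Cpt1c (36 fragments), Mlxipl (19) and Pparg (13) without Scd1 alone. None of these fragment counts reached the medians of their lists.

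Among T cell and signalling lists the helper and regulatory lineage factors were lowest, with a median of -0.01 over 95 pairs, 1 of them 1.5-fold higher and 1 lower. The highest was near Prdm1, the factor BLIMP-1, with 0.68, and the lowest in Rora, with 53 and 27 fragments and -0.60. The Gimap and Schlafen clusters, which encode GTPases and restriction factors of lymphocyte survival and quiescence, had the highest median, 0.12, over 29 pairs. Their lowest pair, at the start of Gimap8, had -0.77, and against the strongest overlapping region 0.20. TCR complex genes had 0.05 over 220 pairs, and quiescence factors 0.06 over 354. The beta-catenin and Wnt list, which includes the receptor Fzd6 called without Scd1 alone, had 0.06 over 128 pairs, with 3 pairs 1.5-fold higher and none lower. ER and oxidative stress genes had 0.09 over 65 pairs and no pair past 1.5-fold.

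**Figure D5:**
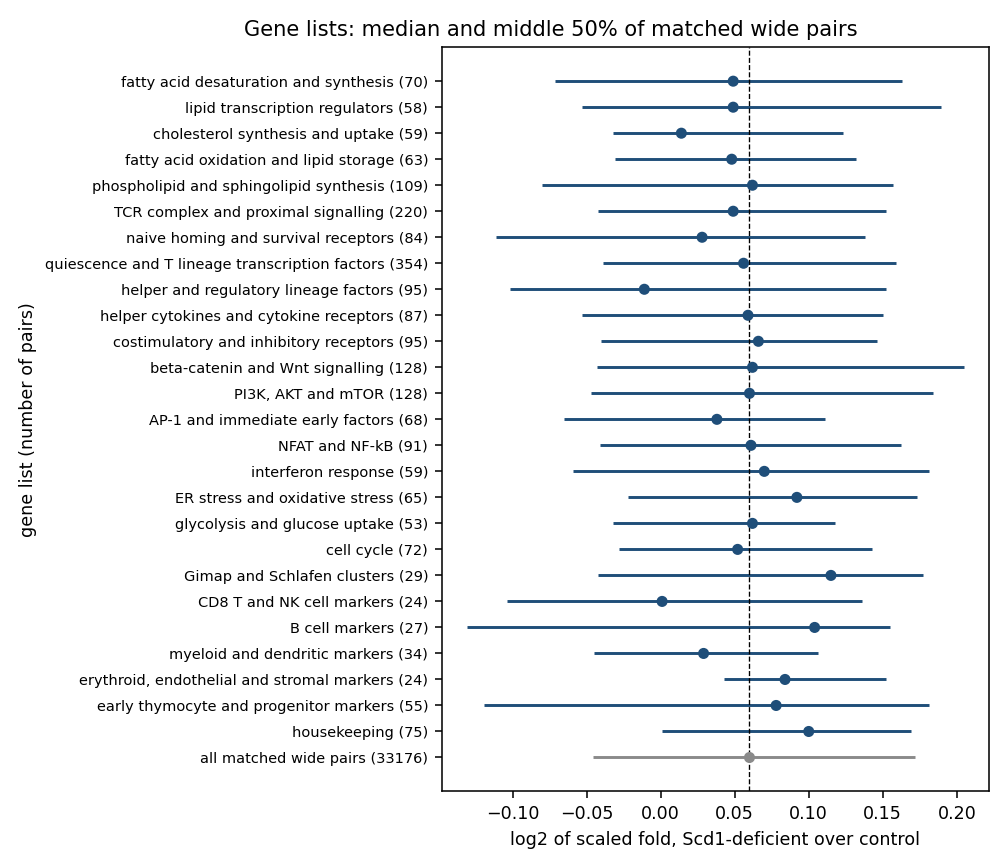
Median (point) and middle 50% (line) of the log2 of scaled fold, Scd1-deficient over control (horizontal axis), over the matched wide pairs of each of 26 gene lists, with the number of pairs in parentheses. The dashed line is the median of all 33176 wide pairs, 0.06, which lies within the line of every list.

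Genes with several wide pairs could be ranked by their median. Adck1, a mitochondrial kinase-like gene, was highest with 0.58 over 5 pairs, of which 1 was below 0. Rab3il1 had 0.51 over 4 pairs, including the region at Fads3, and all 4 were above 0. Mapt, which encodes tau, had 0.45, Mt2, a metallothionein, 0.40, and Pcbp4, Rgs9, Ccdc136 and Ilkap between 0.36 and 0.39. In DN3 cells the medians of these 8 genes lay between -0.06 and 0.11. On the low side stood Ifit1bl2 and Ifit3b, interferon-induced neighbours that share 3 of their 4 pairs, both with -0.38. Others were Ano6, a scramblase of membrane phospholipids (-0.30), Ntn4 (-0.28), Irgc1 (-0.27), Pias1, a SUMO ligase (-0.26), and Lif (-0.24). All pairs were above 0 at Rab3il1, Rgs9, Ccdc136 and Ilkap, and below 0 at Ntn4 and Pias1. Of the 2804 genes with 4 or more wide pairs, 290 (10.3%) had all pairs above 0 and 24 (0.856%) had all below 0. These counts rest on where 0 lies. They became 105 and 87 with the medians of the matched wide regions as divisors, and 28 and 291 with those of equal numbers of the strongest regions.

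The DN3 lists served as a further measure of Scd1 loss in other cells, possibly of the same mice. Over the 30209 wide pairs called in both DN3 lists, the naive and DN3 log2 values had a Pearson correlation of -0.01 and a Spearman correlation of -0.02. Of the 803 naive pairs past 1.5-fold, 700 had a DN3 value and 14 were past 1.5-fold there too, 7 in the same direction and 7 in the opposite one. Over all 30209 pairs 235 (0.778%) were past 1.5-fold in DN3 cells. The same direction was seen near Nod2, the sensor of bacterial muramyl dipeptide. There the naive lists had 446 fragments in the control and 200 without Scd1 (chr8:88691324-88692518), a ratio of 0.448 (0.378 to 0.531) and a log2 of -0.75, and the DN3 log2 was -0.89. This was the best counted of the 14, on a local background of 97.93 and 71.11 fragments. Others were near Rnf186 (-0.60 in naive and -0.65 in DN3 cells), Map3k13 (0.61 and 0.61) and Dedd (0.87 and 0.88). The rest lay inside Btbd16 (0.71 and 1.08), Umad1 (0.85 and 0.86) and Kif3b (0.87 and 0.94). At Btbd16 the Scd1-deficient naive region spanned 2 control regions, and the summits lay 1179 bp apart. With the strongest overlapping region of each list the naive log2 there was 0.49, within 1.5-fold.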

How the data were processed

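ATAC-seq was run on nuclei of untreated primary cells, per the labels' protocols. The submitters' processing notes name Trimmomatic, BWA, MACS2 and mm10. Their versions and settings, the removal of duplicates and a Tn5 shift of the reads are not stated there or in the labels. The authors deposited 1 narrow peak list per library. Its fold is a ratio of summit pileup to local background by the authors, its deposited −log10 p and −log10 q belong to the same summit, and its deposited score follows the −log10 q. The deposited position of the summit gave distances. These are the authors' values, and each list was scaled by its own median before lists were compared.

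The members, gene lists, motifs and rules were chosen with earlier results of these data known. From fold and −log10 p, the fragments at each summit were recovered as whole numbers, within 0.05, for 100% of regions. Total depth was not known, and the summit medians were 103 and 75 fragments in the naive control and Scd1-deficient list. Regions on the Y chromosome were left out. Genes and promoters came from RefSeq tables of GRCm38.p6, with 21631 protein-coding genes, 17274 of which had a listed start. Around genes, 10 kb on either side were included. Named were the 10 highest and 10 lowest wide pairs with a scaled fold of at least 1 in the higher list, and the 8 wide regions of each list alone with the highest −log10 q. To these came the 8 highest and 8 lowest genes with at least 4 pairs, 35 selected genes, and in each gene list the extreme pairs and differing gene ends. Shares have Wilson 95% intervals in the tables, and ratios of 2 fragment counts have exact 95% intervals. Alternatives were other overlaps, widths, divisors, windows and −log10 q minimums, summit fragments in place of fold, and, added after the data were seen, the strongest overlapping region. Some genes that these rules name are not reported here. With 1 library a group no test was run. The steps were tested on simulated lists. Python 3.11.15, pandas 2.3.3, numpy 2.4.6, scipy 1.17.1 and matplotlib 3.10.9 were used.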

Additional observations from a re-analysis of the deposited data

Results flagged for a closer look

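In 7 wide pairs the naive and the DN3 lists differed between genotypes by at least 1.5-fold in opposite directions. The difference between the cell types was not tested, and each side is 1 library. Near Prdm1, the gene of the plasma cell and effector factor BLIMP-1, the naive log2 was 0.693 and the DN3 log2 -1.012. The naive region there had 21 fragments in the control and 27 without Scd1. Near Kcna3, which encodes the potassium channel Kv1.3 of T cells, the values were 0.662 and -0.809, with 56 and 70 naive fragments. Near Endog, a mitochondrial nuclease, they were 0.734 and -0.626, near S100a13 0.633 and -0.836, near Ctdspl 0.798 and -0.612, and inside Nipal1, a magnesium transporter relative, 0.819 and -0.674. Near Rims2 the order was the other way, with -0.596 in naive and 0.61 in DN3 cells, and the naive region had 131 fragments in the control and 39 without Scd1. In the 6 pairs raised in naive cells both naive summits had at most 71 fragments.

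Peaks on the Y chromosome, which the comparison does not use, were listed in both naive libraries, 9 in the control and 12 in the Scd1-deficient list.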

How the results depend on the processing

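No paired analysis was possible because each genotype has 1 library and the replicate numbers are only names. The main limits are the single library a side, unknown depth and the narrower regions of the Scd1-deficient list. The control-alone share of regions, 5.77%, became 6.15% with an overlap of 50%, 1.67% at a −log10 q of at least 10 and 9.63% with equal numbers of the strongest regions. The Scd1-deficient share, 12.4%, became 12.8%, 5.01% and 7.90%, so that the order of the lists turned in the last setting. For wide regions the control-alone share, 1.81%, became 1.96% with an overlap of 50%, 5.01% at 300 bp, 0.289% at 1000 bp and 0.506% at that −log10 q, and the Scd1-deficient share, 2.01%, became 7.33%, 0.217% and 0.715% in the last 3. The median log2, 0.06, became 0.001 with the medians of wide pairs as divisors, -0.052 with those of equal numbers of the strongest regions, 0.074 at 300 bp, 0.036 at 1000 bp, 0.067 with summits within 100 bp and 0.103 with summit fragments. Instead of 38 pairs, 21 and 15 were 2-fold higher with these divisors, 125 at 300 bp, 2 at 1000 bp, 19 at a −log10 q of at least 10, 162 with summit fragments and 632 at 1.5-fold. Instead of 21 pairs, 24 and 27 were 2-fold lower with these divisors, 8 at 1000 bp, 4 with exactly 1 region each, 1 with summits within 100 bp, 12 at a −log10 q of at least 10, 5 with the strongest overlapping region and 171 at 1.5-fold. Genes called at their start in 1 list alone became 102 in the control, from 46, and 164 without Scd1, from 306, with equal numbers of the strongest regions. The pairs that turned from lower to higher with the strongest overlapping region were Mbnl2 (0.321), Dnajb4 (0.131), Tmem267 (0.125), Adamts6 (0.178), Amd1 (0.142), Zeb2 (0.186) and Sdhaf1 (0.122). The cause of the other changes was not tested. The median of each of the 26 gene lists stayed within the 95% order-statistic interval of its reported value with 0 or 50 kb around each gene. With the medians of wide pairs as divisors, which moved all values by -0.059, 19 list medians left that interval and 7 stayed. The number of lists under the median of all wide pairs was 14 with either divisor.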

Other observations

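Wide pairs of naive cells that neither DN3 list called were described apart. They numbered 2142, with a median log2 of 0.04 and a middle 50% from -0.12 to 0.20. Of these pairs 38 (1.77%) were at least 1.5-fold higher without Scd1 and 37 (1.73%) at least 1.5-fold lower. Of the 30209 pairs called in both DN3 lists, 573 (1.90%) were higher and 127 (0.42%) lower. The first set was weaker, with a median scaled fold of 0.846 in the control against 1.271. Among the weakest 25% of all wide pairs 2.91% were 1.5-fold higher and 1.31% lower. The difference in balance was not tested.

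Among the pairs past 1.5-fold without a DN3 value were a pair each way inside Inpp4b, a phosphatase of the PI3K pathway. The first had 76 fragments in the control and 32 without Scd1, a log2 of -0.65, and the other had 28 and 34, a log2 of 0.61. Near Il10, the gene of an inhibitory cytokine, a pair had 47 and 28 fragments and a log2 of -0.65.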
